A study of Mus musculus with 3 samples.

Results

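The spots described here are uterine stroma spots rich in Sfrp4 and Rbp4 transcripts, in sections of mouse uterus at pregnancy day 7.5. They were chosen from measured values, as spots with at least 1000 UMIs (counted transcript molecules) in which the summed level of Sfrp4 and Rbp4 was at least 2000 counts per 1000000 UMIs of the spot (CPM). Spots also had to stay under limits for 3 other tissues, namely 1000 CPM for the gland proteases Prss28 and Prss29, 20000 CPM for the muscle genes Acta2, Actg2, Tagln, Myh11 and Cnn1, and 1000 CPM for the yolk sac and embryo genes Apoa1, Apoc2, Cubn, Pou5f1 and Dnmt3b. Of 3939 spots with enough UMIs, 279 met the rule. They are called Sfrp4 Rbp4 stroma spots below.

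The series used 10x Visium slides, whose barcoded spots each take up RNA from the cells lying over them, often more than 1 cell and more than 1 type. It had 1 group, untreated females housed with female littermates to the age of 8 weeks, then mated and dissected at day 7.5; the labels give no strain or genotype. There were 3 libraries, of which the first holds sections of biological replicates 1 and 2 in 1 matrix and the others hold replicate 3 and replicate 4. Values per library are given in the order replicates 1 and 2, replicate 3, replicate 4, and n is 3. The libraries held 16915926, 27279702 and 29953072 UMIs, and the spot barcodes they share (676 to 825 between pairs of libraries) are those of the slide. Where the spots lay in the section was not used here.

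Sfrp4 encodes a secreted Frizzled-related protein, which binds Wnt ligands outside the cell and modulates their signalling. Rbp4 encodes the carrier that brings retinol, the precursor of retinoic acid, through plasma and tissue fluid. In the mouse uterus after implantation, stromal cells around the embryo enlarge, divide and differentiate into decidua, which makes prolactin-family hormones such as Prl8a2. Stroma farther from the embryo, toward the muscle wall and around the glands, changes later or not at all and stays rich in collagen.

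Neither the protein sequences of these genes nor a promoter entry for Sfrp4 and Nog was used. The promoters of Rbp4, which helped to choose the spots, and of Cyp26b1, the retinoic acid hydroxylase with the largest rise among the retinoid genes below, are shown as RefSeq gives them on GRCm38.p6, read 5′ to 3′ on the minus strand and covering 250 bases before the start to 50 after it. Capitals mark matches on either strand to the TCF/LEF core ATCAAAG or the TATA box core TATAAA, and the nuclear receptor half-site AGGTCA was searched as well.
Rbp4, chr19:38125272-38125571: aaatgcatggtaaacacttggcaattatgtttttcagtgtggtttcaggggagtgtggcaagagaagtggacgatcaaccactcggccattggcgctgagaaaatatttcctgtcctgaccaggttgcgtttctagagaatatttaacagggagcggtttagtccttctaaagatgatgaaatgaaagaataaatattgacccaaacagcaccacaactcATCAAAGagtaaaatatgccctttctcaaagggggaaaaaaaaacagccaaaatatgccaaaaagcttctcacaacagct
Cyp26b1, chr6:84593761-84594060: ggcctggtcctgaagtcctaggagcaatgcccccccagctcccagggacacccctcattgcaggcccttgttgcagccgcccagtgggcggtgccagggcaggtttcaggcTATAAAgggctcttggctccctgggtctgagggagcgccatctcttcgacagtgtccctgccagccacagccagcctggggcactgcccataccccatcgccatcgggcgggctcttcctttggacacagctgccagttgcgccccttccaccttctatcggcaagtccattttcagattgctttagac
The Rbp4 window (the first of 2 starts listed) held 1 TCF/LEF core and 40.7% G or C, and the Cyp26b1 window held 1 TATA box core and 62.3% G or C. Of 32851 promoters of the same length, 3.73% held the TCF/LEF core, 13.6% the TATA box core and 16.3% the nuclear receptor half-site. Neither window held the half-site, and a match is a string of letters only.

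The spots took 8.40% of kept spots in the library of replicates 1 and 2 (149 of 1773, exact 95% binomial interval 7.15 to 9.79), 5.93% in replicate 3 (64 of 1080, 4.59 to 7.50) and 6.08% in replicate 4 (66 of 1086, 4.73 to 7.67). The mean share was 6.80% ± 1.39 (SD, n = 3), and the intervals cover counting error only. A further 90 spots reached the minimum for Sfrp4 and Rbp4 but were removed by the limits, 86 of them by the gland limit and 4 by the embryo limit. The muscle limit removed none. The 3 spots just inside the minimum had 2009 to 2053, 2021 to 2040 and 2049 to 2082 CPM per library, and the 3 spots just outside had 1944 to 1965, 1890 to 1961 and 1948 to 1997 CPM. With 28, 12 and 15 spots under 2500 CPM, the spots at the lower edge graded into those outside.

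The spots were first of all Sfrp4 spots. Pooled over a library's spots, Sfrp4 stood at 3189, 3214 and 3174 CPM in the Sfrp4 Rbp4 stroma spots, against 258, 214 and 195 CPM in all other kept spots. Rbp4 stood at 763, 639 and 588 CPM in the Sfrp4 Rbp4 stroma spots, against 53.8, 24.8 and 46.3 CPM in the others. Sfrp4 gave more UMIs than Rbp4 in 143 of 149, 64 of 64 and 66 of 66 of the spots, and 43, 8 and 4 of them had no Rbp4 UMI. Every spot of the set had Sfrp4 UMIs. Since both genes chose the spots, these values describe the choice and carry no test.

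**Figure D1:**
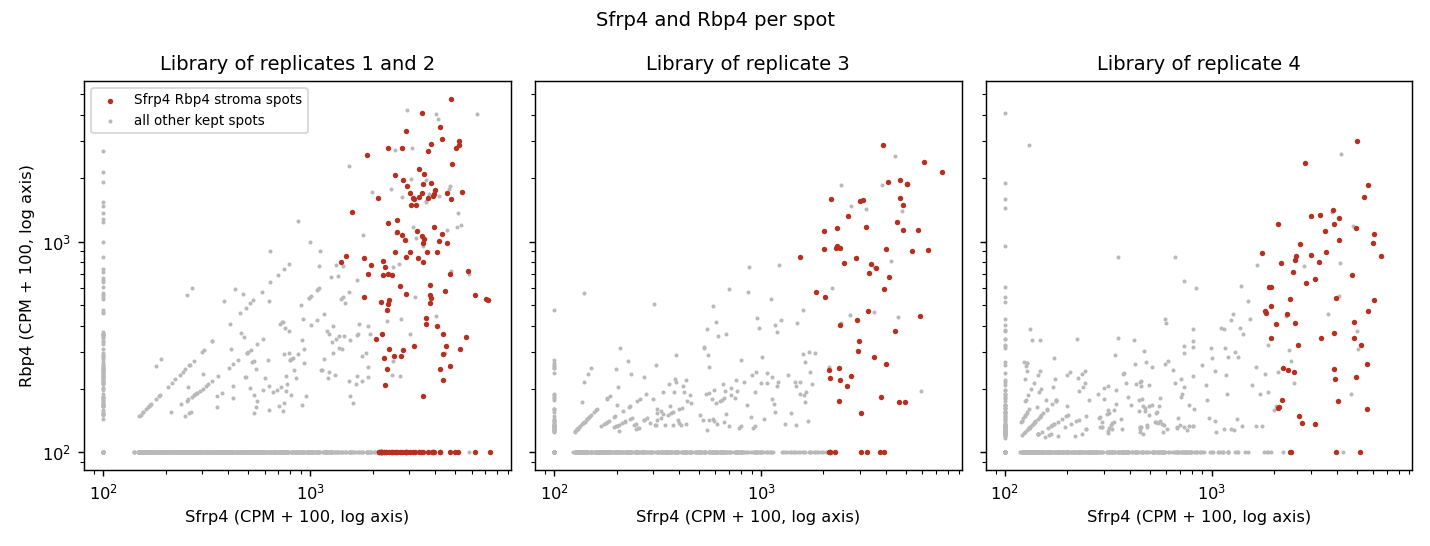
Level of Sfrp4 (x axis) and Rbp4 (y axis) in each kept spot, as CPM plus 100 on log axes, with 1 panel per library. Sfrp4 Rbp4 stroma spots are red and all other kept spots grey; red spots spread from no Rbp4 UMI, on the lower edge, to 4673, 2786 and 2905 CPM, and grey spots among them were removed by the limits.

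For other genes, UMIs were summed per library over the Sfrp4 Rbp4 stroma spots and over all other kept spots and compared with edgeR's quasi-likelihood test with the library as a block. Genes were called where the p adjusted by Benjamini-Hochberg over all genes tested was under 0.05 and the log2 fold change was 1 or more in either direction. The 14 genes of the rule were left out of the test. Of 13060 genes tested, 842 (6.45%) were higher and 869 (6.65%) lower in the Sfrp4 Rbp4 stroma spots, 13.1% in all, with a median log2 fold change of -0.01 over all genes. The tests describe which transcripts go together with Sfrp4 and Rbp4 in the tissue; they do not show that the spots form a separate tissue. All counts come from spots of several cells, so fewer cells of a type and less RNA per cell cannot be told apart. The spots were shallower, with medians of 6051, 16681 and 25996.5 UMIs per spot, against 8551.5, 27107.5 and 28518 UMIs in all other spots, and with only spots of at least 5000 UMIs the counts of called genes stayed within 1.5 times.

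Several of the most abundant genes of the Sfrp4 Rbp4 stroma spots were called higher there. Ctla2a, a cysteine protease inhibitor-like gene of the decidua, was the most abundant gene with 71920, 65117 and 65698 CPM, against a mean of 22788 ± 838 CPM in all other spots (SD, n = 3), and rose by 1.67 ± 0.06 (log2 fold change ± SE, edgeR adjusted p = 1.8e-11). Mgp, matrix Gla protein, averaged 7155 ± 941 CPM against 1623 ± 346 CPM and rose by 2.25 ± 0.08. Sparc, a collagen-binding matricellular protein, averaged 5763 ± 524 CPM against 2015 ± 92.4 CPM, a rise of 1.61 ± 0.08. Tac2, which encodes neurokinin B, averaged 4597 ± 462 CPM against 1585 ± 228 CPM, a rise of 1.64 ± 0.10. In the order of abundance Sfrp4 was number 34 and Rbp4 number 197.

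Among the named genes with the largest rises were a pair of Bmp and retinoic acid regulators, the insulin-like growth factor binding proteins Igfbp5 and Igfbp3 and several matrix and adhesion genes. Nog, which encodes the Bmp inhibitor noggin, had 52.0, 106 and 50.4 CPM in the Sfrp4 Rbp4 stroma spots, against 5.42, 3.93 and 3.03 CPM in all other spots. Cyp26b1, which encodes an enzyme that breaks down retinoic acid, had 56.0, 61.2 and 69.0 CPM, against 4.22, 2.48 and 5.05 CPM. The groups did not overlap for either gene, but both were picked among the largest rises. How many of all tested genes had no overlap was not counted. The rises were 4.18 ± 0.24 for Nog and 4.11 ± 0.21 for Cyp26b1. The adhesion genes Itga8, which encodes integrin alpha 8, and Fras1, which encodes a basement membrane protein of the Fraser complex, rose by 4.19 ± 0.15 and 3.65 ± 0.22. Fibin rose by 4.38 ± 0.21, Itgbl1 by 3.61 ± 0.13 and the matrix genes Thbs4, Col11a1 and Col8a2 by 3.45 ± 0.18, 3.40 ± 0.14 and 3.10 ± 0.23.

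Igha, the constant region of IgA made by plasma cells, had the largest fitted rise, but most of its size rested on replicate 4. It had 10 UMIs (9.82 CPM), 4 UMIs (3.71 CPM) and 261 UMIs (162 CPM) in the Sfrp4 Rbp4 stroma spots, against 0.63, 2.25 and 2.58 CPM in all other spots. The fitted rise was 4.72 ± 0.60 with all libraries and 2.33 without replicate 4 (adjusted p = 0.0045). Hsd11b2, which encodes the enzyme that inactivates glucocorticoids, had 174, 215 and 206 CPM in the Sfrp4 Rbp4 stroma spots, against 29.5, 26.4 and 21.3 CPM in all other spots, and rose by 3.07 ± 0.13. Prxl2a and Fxyd6 rose by 3.51 ± 0.11 and 3.13 ± 0.13.

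Granzyme and perforin genes were among the largest falls. Natural killer cells of the decidua carry granzymes and perforin in their granules, and 12 of 18 tested natural killer cell genes were lower and 2 higher. Prf1, which encodes perforin, had 1.96, 4.63 and 1.87 CPM in the Sfrp4 Rbp4 stroma spots, against 69.0, 325 and 145 CPM in all other spots, a fall of 5.91 ± 0.21 on the log2 scale. Gzma fell by 6.55 ± 0.21. Gzmd, Gzme and Gzmf fell by 6.02 ± 0.18, 6.84 ± 0.21 and 5.98 ± 0.14, but these genes are near-identical copies and the split of UMIs among them is uncertain. The summed level of the natural killer list was 124, 185 and 118 CPM in the Sfrp4 Rbp4 stroma spots, against 1496, 8491 and 3529 CPM in all other spots. The 2 higher members, Ccl5 (1.31 ± 0.28) and Cd7 (1.86 ± 0.44), were low, with at most 19.9 CPM, and Cd7 missed the threshold without replicate 4 (adjusted p = 0.18).

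4 named genes had no UMI in any Sfrp4 Rbp4 stroma spot. Counted against 3 UMIs over the spots, Vipr1 was at least 17.2-fold lower, Fcrl6 at least 16.1-fold, the placental lactogen Prl3d3 at least 12.7-fold and Ctsg at least 11.6-fold. Fcrl6 and Ctsg missed the threshold without the block (adjusted p = 0.11 and 0.079). Tmsb15a had 1 UMI in the spots and was 133-fold lower, with an exact Poisson interval of 23.9 to 5270 for its own count. Of 7 tested trophoblast genes 6 were lower, and of 8 tested yolk sac and embryo genes outside the rule 3 were lower; the rule sets a limit on yolk sac and embryo genes.

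**Figure D2:**
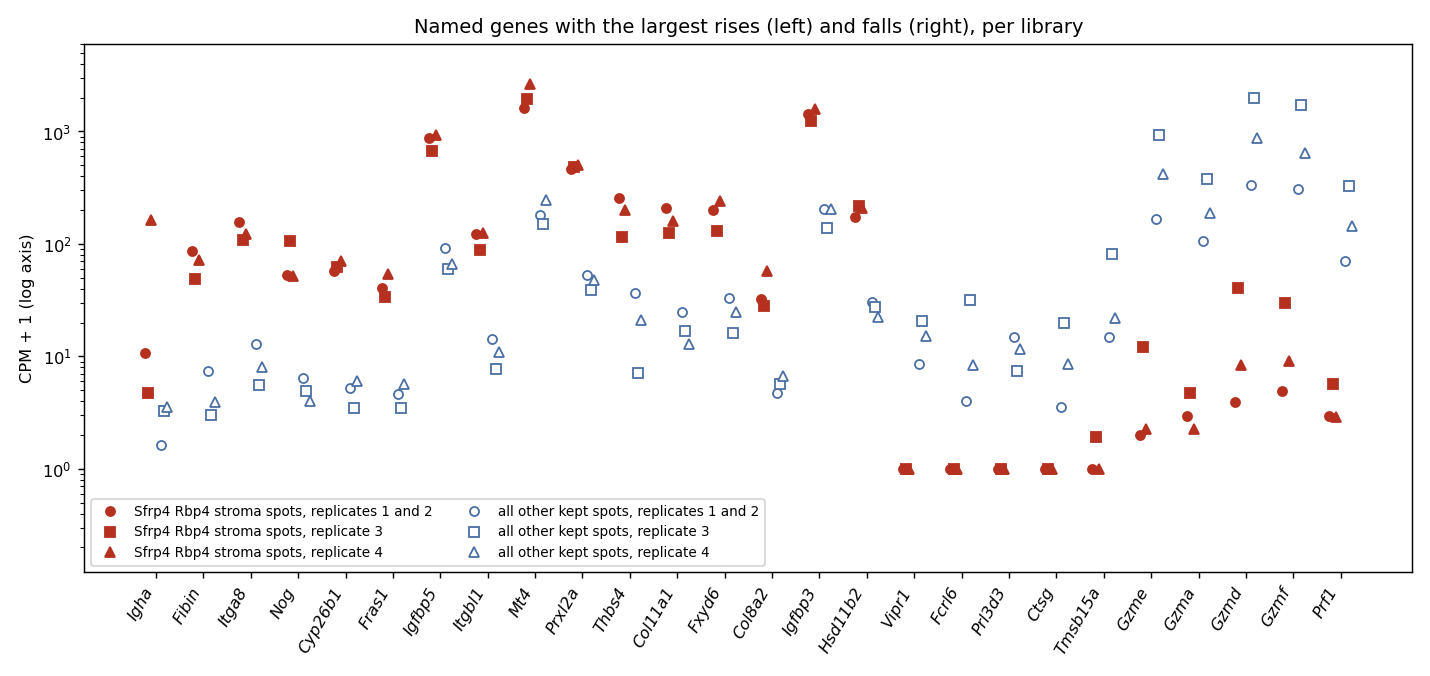
CPM plus 1 on a log axis of the 16 named genes with the largest rises and the 10 with the largest falls, with Sfrp4 Rbp4 stroma spots in red to the left of all other kept spots in blue, 1 point per library. Igha is high in replicate 4 alone (162 CPM), and the granzymes of the other spots are highest in replicate 3.

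Collagen and other matrix genes were mostly higher. Of 18 tested collagen genes 12 were higher and none lower, with a median log2 fold change of 1.41 against -0.01 over all genes. Col1a2, a chain of fibrillar collagen I, had 4546, 3270 and 4255 CPM in the Sfrp4 Rbp4 stroma spots, against 1027, 828 and 811 CPM in all other spots, a rise of 2.27 ± 0.09. Col1a1 rose by 2.16 ± 0.09, Col5a1 by 1.98 ± 0.10, Col16a1 by 2.09 ± 0.11 and the basement membrane chain Col4a6 by 2.57 ± 0.25. Of 27 matricellular and elastic matrix genes 14 were higher and 2 lower (median 1.14), with the small proteoglycan Bgn at 2.21 ± 0.10, the lysyl oxidases Lox and Loxl1, which crosslink collagen and elastin, at 1.71 ± 0.09 and 2.13 ± 0.13, and the thrombospondin Thbs1 at 2.28 ± 0.16. Efemp1 fell by 2.25 ± 0.18.

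General stromal fibroblast genes moved less evenly, with 10 of 24 higher, 2 lower and a median of 0.65. The microfibril protein Mfap4 rose by 2.90 ± 0.12, the procollagen processing enhancer Pcolce by 2.17 ± 0.10, Islr by 2.02 ± 0.12 and the transcription factor Tcf21 by 2.82 ± 0.29. The pan-stromal marker Pdgfra, a receptor for platelet-derived growth factor, was at 243, 220 and 246 CPM in the Sfrp4 Rbp4 stroma spots, against 191, 177 and 166 CPM in all other spots, a log2 fold change of 0.51 ± 0.09 that is under the fold threshold. The proteoglycan gene Dcn was at 474, 222 and 204 CPM against 428, 282 and 249 CPM (-0.05 ± 0.10, adjusted p = 0.74).

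The label of the set calls the spots undecidualized, and the decidual genes bear this out in part only. Of 16 decidual genes 7 were lower and 2 higher, with a median of -0.77. The decidual prolactins fell, with Prl8a2 at 5625, 2466 and 3555 CPM in the Sfrp4 Rbp4 stroma spots, against 28580, 7742 and 13990 CPM in all other spots (-1.89 ± 0.11), and Prl3c1 at -2.18 ± 0.10, which missed the threshold without the block (adjusted p = 0.10). The small heat shock protein gene Cryab fell by 2.21 ± 0.11, the growth factor gene Bmp2 by 2.07 ± 0.11 and Angpt4 by 2.68 ± 0.12. Prl8a2 was still number 27 in the order of abundance in the spots. Mt4, a metallothionein, had 1605, 1934 and 2635 CPM against 182, 150 and 244 CPM, a rise of 3.52 ± 0.11, and Mt3 rose by 1.64 ± 0.13.

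Other genes of the decidual list did not reach a call in either direction. Gatm, the first enzyme of creatine synthesis, was at 2367, 2416 and 1995 CPM in the Sfrp4 Rbp4 stroma spots, against 1728, 1155 and 1162 CPM in all other spots (0.87 ± 0.11), and Dio3, which inactivates thyroid hormone, had a log2 fold change of 0.72 ± 0.10. The summed decidual list was at 13260, 11580 and 12910 CPM in the Sfrp4 Rbp4 stroma spots, against 40090, 15680 and 25150 CPM in all other spots and 3378, 2399 and 1791 CPM in muscle spots. These are pooled levels. In replicates 1 and 2 and in replicate 3 the median spot did not show the same gap, and the medians of replicate 4 are not given here. In replicates 1 and 2 the median spot was at 11379 CPM in the Sfrp4 Rbp4 stroma spots and 11299 CPM in all other spots. In replicate 3 the medians were 9984 and 5974 CPM. The spots are therefore named by the genes of the rule and not as undecidualized.

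Neither the progesterone receptor gene nor the estrogen receptor gene Esr1 was called. The progesterone receptor gene Pgr was at 47.1, 47.3 and 53.5 CPM in the Sfrp4 Rbp4 stroma spots, against 50.8, 48.4 and 45.2 CPM in all other spots (0.16 ± 0.13, adjusted p = 0.41), and the estrogen receptor gene Esr1 at 92.3, 94.5 and 92.1 CPM against 71.2, 80.7 and 73.6 CPM (0.41 ± 0.10). Of 19 genes of the progesterone and estrogen response list 1 was higher, the growth factor Igf1, and none was lower. No proliferation gene of 15 was called, and the median of that list was -0.41. Rrm2, which makes deoxyribonucleotides for DNA synthesis, was at 1284, 1364 and 1234 CPM against 2804, 2250 and 2429 CPM (-0.84 ± 0.09). The whole list summed to 1940, 1812 and 1798 CPM against 3615, 3124 and 3223 CPM, so Rrm2 gave most of the sum in both.

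Spots under the 3 tissue limits were also grouped by their Sfrp4 and Rbp4 level. Only some of the level ranges are given below, and those given differ between the lists. Summed collagen was at 3783, 4375 and 3778 CPM in spots under 500 CPM of Sfrp4 and Rbp4, at 7816, 6633 and 8256 CPM from 500 to 1000 CPM, at 15100, 10136 and 12812 CPM from 2000 to 4000 CPM and at 15080, 12740 and 17045 CPM from 4000 to 8000 CPM. Summed proliferation genes were at 3920, 3117 and 3395 CPM in spots under 500 CPM, at 3077, 3267 and 2720 CPM from 1000 to 2000 CPM and at 1630, 1204 and 1362 CPM from 4000 to 8000 CPM. Rrm2 gave most of this sum in the Sfrp4 Rbp4 stroma spots and in all other spots, and its level per range is not given here. Summed complement genes were at 670, 750 and 667 CPM in spots under 500 CPM and at 2281, 2400 and 2590 CPM from 4000 to 8000 CPM. In replicates 1 and 2 collagen was no higher from 4000 to 8000 CPM than from 2000 to 4000 CPM, and proliferation genes in replicate 3 were higher from 1000 to 2000 CPM than under 500 CPM; these values are a description with no test.

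In the Wnt pathway, to which Sfrp4 belongs, both ligands and antagonists were split. Of 6 tested ligands, Wnt2 and Wnt5b were higher and Wnt5a and Wnt6 lower. Wnt2 had 13.7, 10.2 and 18.7 CPM in the Sfrp4 Rbp4 stroma spots, against 2.77, 0.92 and 1.31 CPM in all other spots (3.32 ± 0.37), and Wnt5b rose by 2.57 ± 0.30. Wnt6 had 21.6, 15.8 and 20.5 CPM against 93.2, 77.6 and 87.9 CPM, a fall of 2.05 ± 0.14, and Wnt5a fell by 1.10 ± 0.12. Wnt4, a ligand needed for decidua formation in the mouse, was at -0.90 ± 0.14, under the fold threshold. The groups of Wnt2, Wnt5b, Wnt5a and Wnt6, all called genes, did not overlap. How many of all tested genes had no overlap was not counted.

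Of 8 secreted Wnt antagonists other than Sfrp4, 2 were higher and 1 lower. Sfrp1, a relative of Sfrp4, had 117, 92.7 and 167 CPM in the Sfrp4 Rbp4 stroma spots, against 21.7, 27.3 and 28.0 CPM in all other spots, a rise of 2.39 ± 0.14. Dkk3 rose by 1.19 ± 0.14 (0.95 without replicates 1 and 2, under the fold threshold), and Dkk2, which blocks the Lrp co-receptors, fell by 1.81 ± 0.27. Sfrp5 was the most abundant of the others, at 312, 392 and 369 CPM against 370, 193 and 325 CPM, and overlapped between the groups (0.42 ± 0.16, adjusted p = 0.065). Sfrp2 was at 8.84, 7.41 and 6.22 CPM against 15.3, 8.47 and 14.9 CPM (-0.72 ± 0.29, adjusted p = 0.071).

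Of 24 tested Wnt receptors and targets, 3 were higher and 4 lower. The receptor Fzd1 had 363, 293 and 335 CPM in the Sfrp4 Rbp4 stroma spots, against 207, 114 and 141 CPM in all other spots (1.24 ± 0.11). Ror2, a receptor of Wnt5 ligands, rose by 1.85 ± 0.29, and Lgr4, a receptor for R-spondins, by 1.19 ± 0.25 (0.74 with a minimum of 4000 CPM, adjusted p = 0.21). Rspo3, an R-spondin that strengthens Wnt signals, had 6, 0 and 2 UMIs in the spots and fell by 3.36 ± 0.42, and the Wnt-responsive transcription factor Lef1 fell by 3.15 ± 0.51. Axin2, the usual Wnt target gene, was at 4.91, 1.85 and 4.35 CPM against 6.05, 5.15 and 6.35 CPM (-0.55 ± 0.39, adjusted p = 0.32). The calls of Fzd4 (-1.32 ± 0.41) and Nkd1 (-1.17 ± 0.35) were lost in DESeq2's Wald test (adjusted p = 0.14 and 0.079) and without replicate 4 (adjusted p = 0.15 and 0.17).

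Retinoid genes other than Rbp4 were called in both directions. Of 21 tested, 5 were higher and 4 lower. Aldh1a2, which makes retinoic acid, had 222, 285 and 284 CPM in the Sfrp4 Rbp4 stroma spots, against 50.6, 63.2 and 49.1 CPM in all other spots, a rise of 2.39 ± 0.11. Aldh1a3, which catalyses the same step, fell by 3.56 ± 0.46, with 0, 2 and 2 UMIs in the spots. Stra6, the membrane receptor of Rbp4, had 44.2, 21.3 and 45.4 CPM against 23.0, 10.2 and 19.3 CPM, a rise of 1.196 ± 0.16 (0.41 with a minimum of 4000 CPM, adjusted p = 0.32). Crabp1, a retinoic acid binding protein of the cell, had 0.98, 2.78 and 0.62 CPM against 33.3, 47.7 and 33.3 CPM, a fall of 4.68 ± 0.32.

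The remaining calls among the retinoid genes were less firm. Rbp7 rose by 1.16 ± 0.23, and the receptor gene Rxra by 1.05 ± 0.19 (0.38 with a minimum of 4000 CPM, adjusted p = 0.42). The calls of Ttr, the plasma partner of Rbp4 (-1.85 ± 0.36), and of the receptor gene Rarb (-1.89 ± 0.64) were lost without the block (adjusted p = 0.59 and 0.12) and in DESeq2's Wald test (adjusted p = 0.84 and 0.14). Cyp26a1, a relative of Cyp26b1, had UMIs only in the spots of replicate 3 (16 UMIs, 14.8 CPM), so its log2 fold change of 0.14 ± 0.70 hides libraries that go opposite ways.

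**Figure D3:**
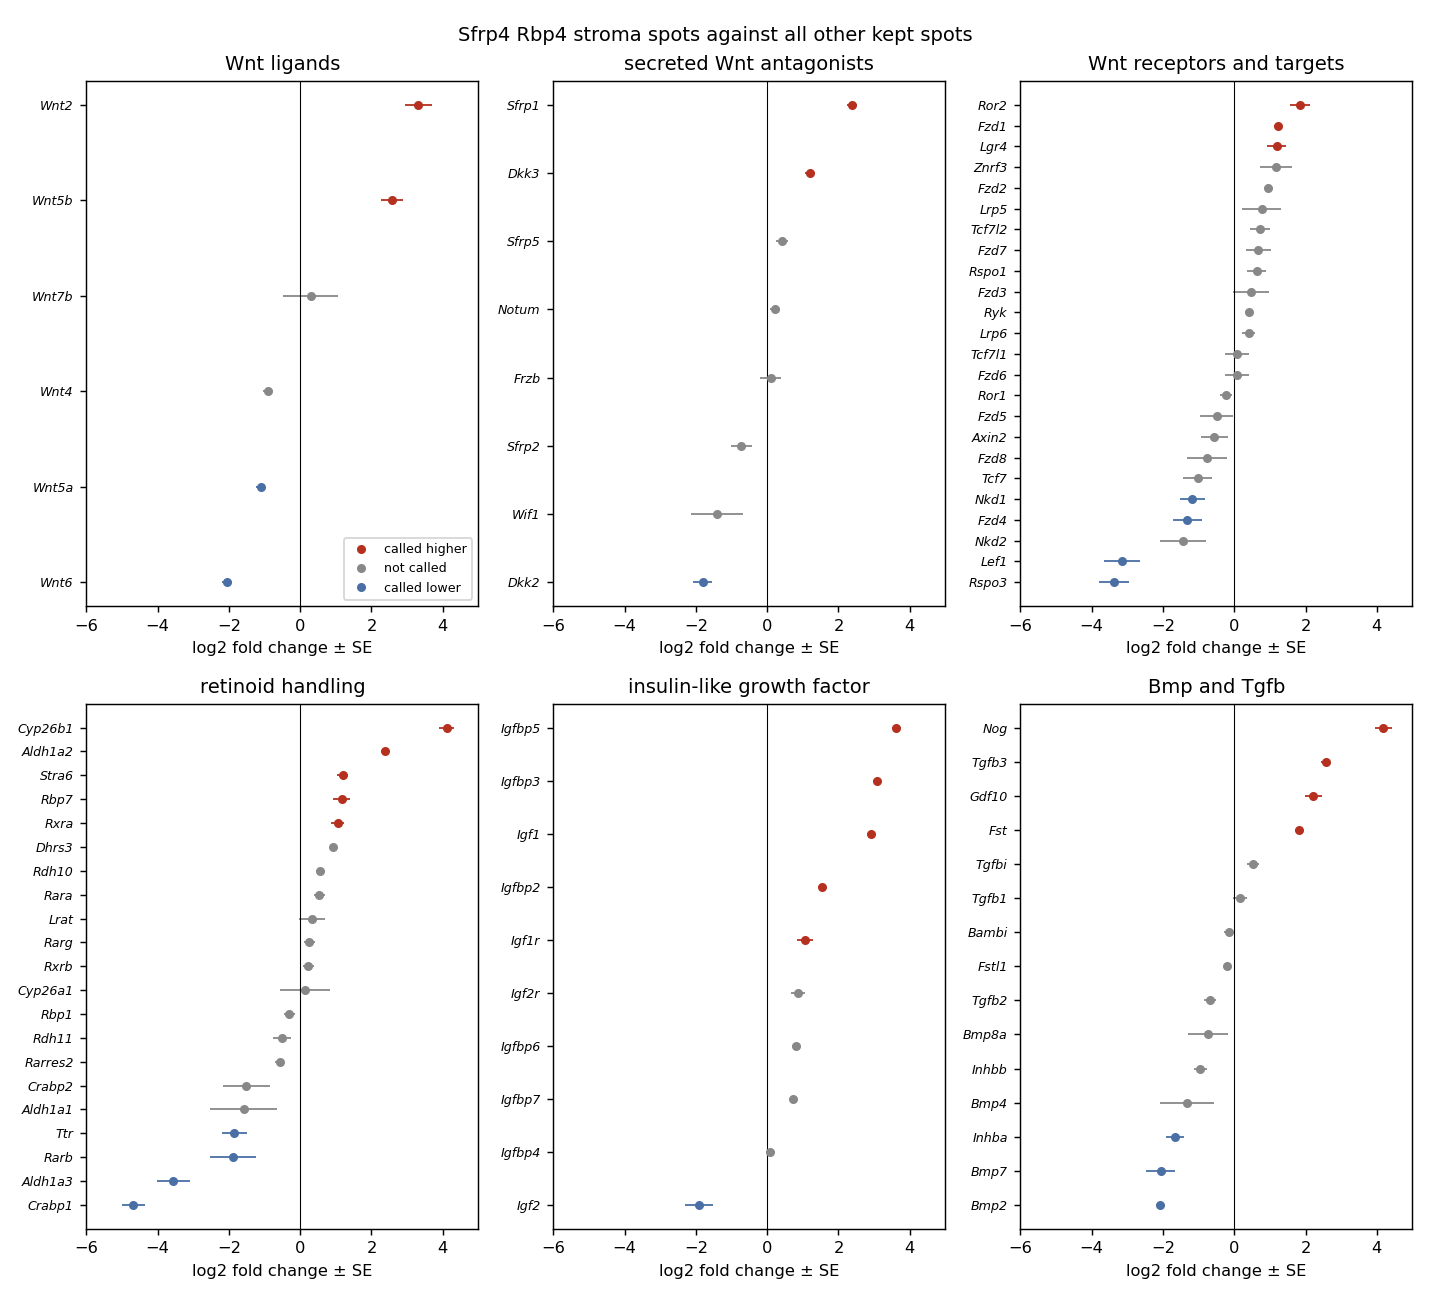
Log2 fold change ± SE of tested genes with UMIs in the spots, for 6 pathway lists, Sfrp4 Rbp4 stroma spots against all other kept spots; red points were called higher, blue lower and grey neither. Igfbp5, Cyp26b1 and Nog lie farthest to the right, and Crabp1 farthest to the left.

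Insulin-like growth factor genes were higher for 5 of 10 and lower for 1. Igf1, which stimulates growth, had 548, 403 and 462 CPM in the Sfrp4 Rbp4 stroma spots, against 78.4, 59.3 and 64.7 CPM in all other spots (2.90 ± 0.09). Igfbp5 and Igfbp3, which bind the growth factors outside the cell, had 876, 665 and 926 CPM against 91.7, 59.1 and 65.5 CPM (3.62 ± 0.12), and 1434, 1226 and 1592 CPM against 204, 138 and 203 CPM (3.08 ± 0.10). Igfbp2 rose by 1.55 ± 0.12 (0.30 with a minimum of 4000 CPM, adjusted p = 0.13), and the receptor gene Igf1r by 1.05 ± 0.23 (0.99 with no filter on low counts, under the fold threshold). Igf2 was low in both, at most 13.1 CPM, and fell by 1.91 ± 0.40 (-1.58 without replicate 4, adjusted p = 0.057).

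In the Bmp and Tgfb list 4 of 16 genes were higher and 4 lower. The inhibitors Nog and Fst, which encodes follistatin, were higher, with Fst at 1025, 893 and 863 CPM in the Sfrp4 Rbp4 stroma spots, against 365, 245 and 250 CPM in all other spots (1.81 ± 0.10). The ligand genes Tgfb3 (2.57 ± 0.13) and Gdf10 (2.22 ± 0.24) were higher as well. Among the lower members were the ligands Bmp2, Bmp7 (-2.06 ± 0.41, -1.38 and adjusted p = 0.058 without replicate 4) and Inhba (-1.66 ± 0.24, adjusted p = 0.053 without the block).

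Complement genes were higher for 6 of 10 and lower for 1. C3, the central component, had 337, 481 and 519 CPM in the Sfrp4 Rbp4 stroma spots, against 54.9, 49.4 and 67.8 CPM in all other spots (3.05 ± 0.12), C4b rose by 2.39 ± 0.20, and the regulator gene Serping1 by 1.38 ± 0.09. Masp1 fell by 1.64 ± 0.14. Of 13 chemokine and cytokine genes 4 were higher and 2 lower, with Cxcl14 at 3160, 2590 and 4210 CPM against 951, 711 and 1107 CPM (1.94 ± 0.08). Il15, a growth factor of natural killer cells, was at 11.8, 8.34 and 7.46 CPM against 12.4, 44.8 and 66.6 CPM (-2.17 ± 0.33), and that call was lost without the block (adjusted p = 0.072) and in DESeq2's Wald test (adjusted p = 0.11).

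Markers of other cell types in the spots moved as follows, and their part in the results was not tested. Macrophage genes were higher for 7 of 16 and lower for 1. Their summed level was 1354, 874 and 1058 CPM in the Sfrp4 Rbp4 stroma spots, against 762, 1230 and 967 CPM in all other spots. It was lower than in all other spots in replicate 3. The complement-related C1qa, C1qb and C1qc were among the higher ones. C1qb was under the fold threshold without replicates 1 and 2 (0.87) and with no filter on low counts (0.98). The lower one was Csf1r (-1.47 ± 0.15), which decidual cells can also express. Pericyte genes were higher for 5 of 7, among them Pdgfrb (1.44 ± 0.15) and Rgs5 (1.15 ± 0.09). Endothelial genes were higher for 3 of 15 and lower for 2, with a summed level of 819 to 1055 CPM against 1077 to 1245 CPM. Adult globin genes, a sign of blood, were lower for 4 of 4. Of 7 MHC class II genes 3 were higher. Interferon response genes were lower for 5 of 14 and smooth muscle genes outside the rule for 3 of 16. The muscle limit removed none of the spots with enough Sfrp4 and Rbp4.

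Of 14 tested gland and epithelium genes outside the rule, 3 were higher and 4 lower, with a median of 0.38; the gland limit of the rule bears on this list. The gland and epithelium list summed to 164, 823 and 218 CPM in the Sfrp4 Rbp4 stroma spots, against 248, 425 and 448 CPM in all other spots. Lcn2, an epithelial secreted protein, had 1 UMI, 235 UMIs (218 CPM) and 5 UMIs in the spots; it was called higher (1.96 ± 0.44), but its log2 fold change was -1.41 without replicate 3 and -0.01 in DESeq2's Wald test, so it has no direction that holds. The other higher members were Wfdc2, at 6.87, 208 and 4.35 CPM in the Sfrp4 Rbp4 stroma spots, against 6.99, 23.2 and 9.98 CPM in all other spots (2.00 ± 0.48), and the adhesion gene Cdh1 (1.31 ± 0.29). Wfdc2 was above the other spots in replicate 3 alone, and its log2 fold change was -0.61 without that replicate (adjusted p = 0.30). The lower members were the keratins Krt7 (-1.31 ± 0.43), Krt8 (-1.90 ± 0.24) and Krt18 (-2.28 ± 0.26) and the tight junction gene Cldn4 (-2.91 ± 0.58). Without the block the calls of Wfdc2, Cdh1, Krt7 and Cldn4 were lost (adjusted p = 0.13, 0.059, 0.25 and 0.23), and Krt7 was at -0.43 without replicate 4 (adjusted p = 0.35).

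The limits of the rule define 2 neighbouring tissues, muscle spots (179) and gland spots (253), and both were set against the Sfrp4 Rbp4 stroma spots in 1 fit of 8242 genes. Fewer genes were called against gland spots, with 104 genes (1.26%) higher and 491 (5.96%) lower in the Sfrp4 Rbp4 stroma spots, 7.22% in all; without replicate 4 the counts were 63 and 296, and in DESeq2's Wald test 43 and 314. Against muscle spots 864 genes (10.5%) were higher and 786 (9.54%) lower, 20.0% in all. Gland spots overlap in kind with the set, since 86 spots with enough Sfrp4 and Rbp4 were removed by the gland limit, and whether the counts of calls differ was not tested. Sfrp4 itself was at 1787, 2034 and 1324 CPM in gland spots and at 134, 117 and 141 CPM in muscle spots.

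Against gland spots, some fibroblast and other matrix genes were lower and no collagen gene was called. None of 18 collagen genes was called in either direction, with a median log2 fold change of 0.01, and the summed collagen level was 15130, 11120 and 14460 CPM in the Sfrp4 Rbp4 stroma spots, against 14020, 11230 and 13940 CPM in gland spots. Stromal fibroblast genes were lower for 6 of 24 and higher for none (median -0.33), and matricellular and elastic matrix genes were lower for 6 of 27 and higher for 2 (median 0.03). No member of the secreted Wnt antagonist list (5 tested) or of the Bmp and Tgfb list (11 tested) was called. Insulin-like growth factor genes were higher for 0 of 9 and lower for 2, complement genes higher for 1 of 10 and lower for 0. Retinoid genes were higher for 0 of 14 and lower for 3. The insulin-like growth factor list summed to 4934, 4185 and 4937 CPM, against 5062, 4742 and 5333 CPM in gland spots. The complement list summed to 1938, 1780 and 1987 CPM, against 2127, 1830 and 2062 CPM. Lower in the Sfrp4 Rbp4 stroma spots were 11 of 14 smooth muscle genes and 5 of 9 gland and epithelium genes. The gland limit of the rule bears on the gland and epithelium list. Gland spots were chosen without a muscle limit. In them the muscle genes of the rule summed to 8349, 5195 and 8516 CPM, against 1258, 665 and 965 CPM in the Sfrp4 Rbp4 stroma spots. The gland genes Spink1, at 90.3, 56.5 and 84.0 CPM against 6071, 3972 and 9079 CPM (-6.40 ± 0.22), and Spaca7, with no UMI in the spots (at least 33.1-fold lower), led the falls.

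Other falls against gland spots were in antigen presentation, Wnt signalling and blood. MHC class II genes, which present antigen, were lower for 5 of 6, with H2-Ab1 at 59.9, 48.2 and 54.1 CPM in the Sfrp4 Rbp4 stroma spots, against 207, 159 and 185 CPM in gland spots (-1.81 ± 0.14). Adult globin genes were lower for 4 of 4, with the gap widest in replicate 4. They summed to 364, 427 and 427 CPM in the Sfrp4 Rbp4 stroma spots, against 630, 586.5 and 5016 CPM in gland spots. Of 12 tested Wnt receptors and targets 4 were lower and none higher, among them Nkd1 (-2.76 ± 0.37) and Nkd2 (-3.87 ± 0.61), which are feedback inhibitors of Wnt signals, and Rspo1 (-1.73 ± 0.25). The retinoid-responsive Rarres2 fell by 1.88 ± 0.12.

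Few genes were higher than in gland spots. Bdnf, a neurotrophin gene, had 32.4, 30.6 and 14.3 CPM in the Sfrp4 Rbp4 stroma spots, against 6.24, 2.52 and 3.16 CPM in gland spots (2.46 ± 0.44), and the Fraser-complex gene Frem1 rose by 1.74 ± 0.29. Proliferation genes were higher for 5 of 14, with Mcm3, a subunit of the replicative helicase, at 33.4, 29.7 and 28.0 CPM against 6.24, 10.1 and 10.5 CPM (1.68 ± 0.32). Top2a (1.05 ± 0.24), Ccna2 (1.39 ± 0.32) and Mcm2 (1.03 ± 0.27) lost their calls in DESeq2's Wald test (adjusted p = 0.069, 0.052 and 0.10), and Top2a and Cdk1 (1.06 ± 0.22) without replicate 4 (adjusted p = 0.12 and 0.17). The calls of Gzmg (1.94 ± 0.64), Arhgap11a (1.77 ± 0.54) and Capn6 (1.71 ± 0.45) were lost in DESeq2's Wald test as well (adjusted p = 0.35, 0.25 and 0.087). Gland spots were the shallowest, with medians of 4138, 9993 and 8912 UMIs per spot, and the part of depth in these calls was tested only by the alternative of at least 5000 UMIs per spot, in which Top2a missed the fold threshold (0.96).

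Against muscle spots, most decidual and endothelial genes were higher in the Sfrp4 Rbp4 stroma spots. Of 16 decidual genes 11 were higher and none lower, with Gatm (4.25 ± 0.16), Mt4 (4.55 ± 0.15) and Mt3 (3.75 ± 0.15) farthest, and Prl8a2 at 1.81 ± 0.17 (0.96 with the muscle limit at 10000 CPM, under the fold threshold). Cyp26b1 had 57, 66 and 111 UMIs in the spots and 2 UMIs in all muscle spots, a ratio of 55.3 with an exact Poisson interval of 15.3 to 456, and Nog, with 3 UMIs in muscle spots, a ratio of 38.4 (13.1 to 186). Aldh1a2 rose by 3.61 ± 0.21, Fst by 3.57 ± 0.16, Igfbp3 by 4.53 ± 0.18, Igf1 by 2.71 ± 0.15 and Sfrp5 by 2.54 ± 0.15. Endothelial genes were higher for 11 of 13, with Kdr, a receptor of vascular endothelial growth factor, at 2.62 ± 0.33.

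Genes without UMIs in muscle spots included Ccbe1 (at least 10.0-fold higher in the Sfrp4 Rbp4 stroma spots), Cyyr1 (at least 9.23-fold) and Epcam (at least 8.76-fold). Guca2b, with 2, 25 and 1 UMIs in the spots, was at least 3.93-fold higher, and its call was lost without replicate 3 (adjusted p = 0.22). Lower than in muscle spots were 14 of 14 tested smooth muscle genes outside the rule. The 5 smooth muscle genes of the rule chose the muscle spots, and that choice bears on this list. Also lower were 8 of 10 mitochondrial transcripts, and Igfbp6 (-2.00 ± 0.12), Rarres2 (-2.42 ± 0.12) and the Wnt antagonist Frzb (-1.75 ± 0.28). Pln, which encodes phospholamban, a calcium pump regulator of muscle, had no UMI in the spots and was at least 45.2-fold lower. Collagen genes were higher for 1 of 18 and lower for 3 (median -0.17).

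**Figure D4:**
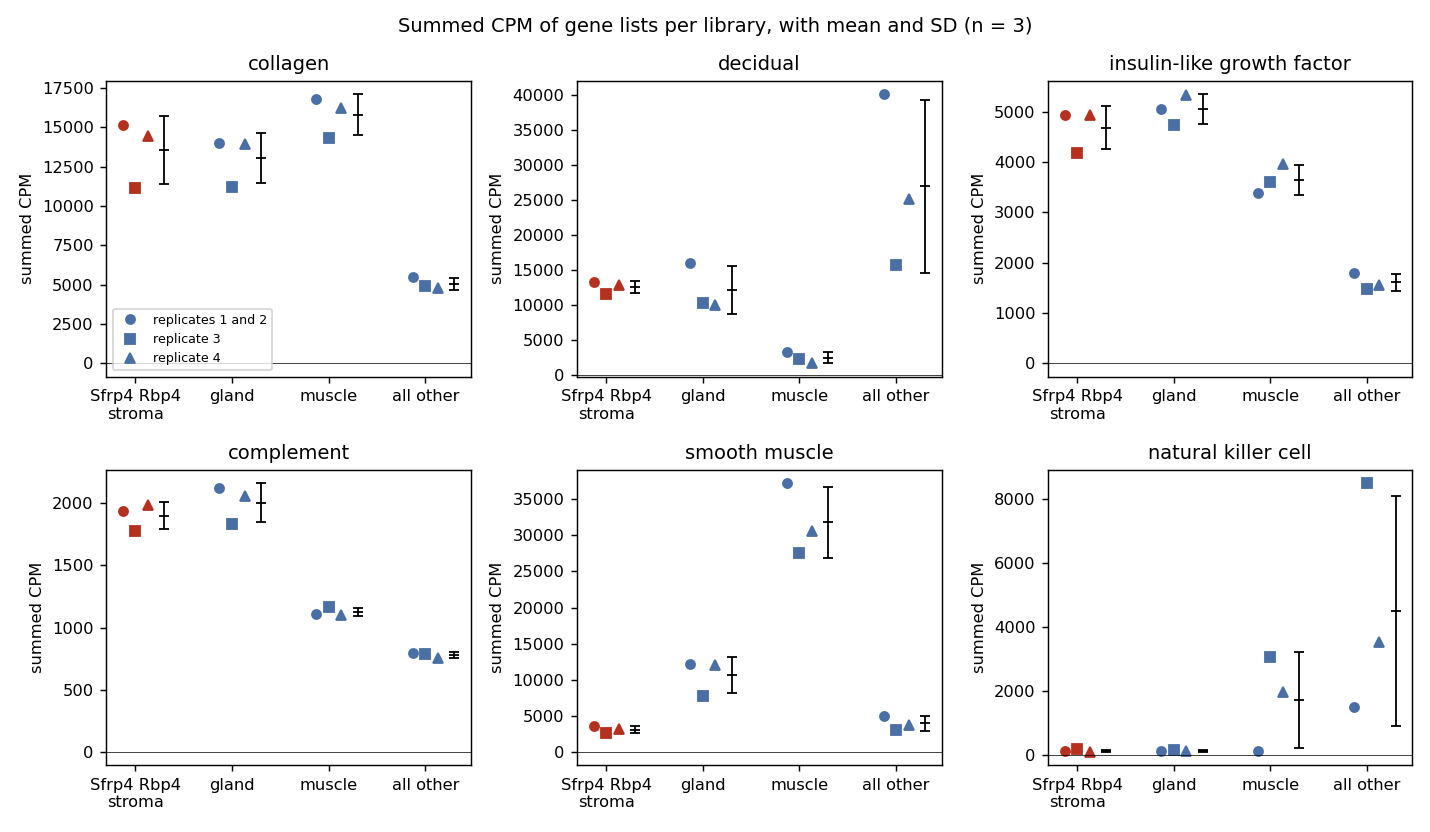
Summed CPM of 6 gene lists (y axis, from 0) in Sfrp4 Rbp4 stroma spots (red) and in gland, muscle and all other kept spots (blue), 1 point per library with the mean ± SD beside it (n = 3). Collagen is at 11120 to 15130 CPM in the red spots and at 11230 to 14020 CPM in gland spots, and the natural killer list is at 118 to 185 CPM in the red spots and 122 to 156 CPM in gland spots.

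The Sfrp4 Rbp4 stroma spots were not uniform. Within each library the third of spots with the highest Sfrp4 share of the Sfrp4 and Rbp4 UMIs (Sfrp4-leaning) was compared with the third with the lowest (Rbp4-leaning), 49, 21 and 22 spots each. Pooled Rbp4 was at 19.7, 89.0 and 103 CPM in Sfrp4-leaning spots and at 1682, 1321 and 1090 CPM in Rbp4-leaning spots, while pooled Sfrp4 was at 3145, 3106 and 3372 CPM and 3113, 3089 and 3103 CPM, so the split followed Rbp4 far more than Sfrp4. Of 4744 genes tested, 137 (2.89%) were higher and 107 (2.26%) lower in Sfrp4-leaning spots, 5.14% in all. Without replicate 3, 56 genes were lower, and DESeq2's Wald test called 81 higher and 46 lower. Besides the named genes of the rule, the list members given below were picked as examples with their values known.

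Sfrp4-leaning spots were the collagen-rich ones. Lum, which encodes the collagen-binding proteoglycan lumican, had 1111, 580 and 667 CPM in Sfrp4-leaning spots, against 60.7, 2.98 and 65.3 CPM in Rbp4-leaning spots, a rise of 4.04 ± 0.22. Ogn, a related proteoglycan, rose by 3.64 ± 0.29, Col14a1, a collagen found along fibrils, by 3.60 ± 0.25, and Dcn by 2.55 ± 0.17. Of 17 collagen genes 10 were higher and none lower, with Col3a1 at 4630, 3192 and 4409 CPM against 1069, 583 and 1036 CPM (2.19 ± 0.12). Stromal fibroblast genes were higher for 9 of 18 and matricellular genes for 9 of 21, and none was lower in either list. Igfbp2 (3.01 ± 0.22) and Igfbp6 (2.35 ± 0.19) were higher and Igfbp3 (-1.197 ± 0.12) lower, so binding proteins of the same growth factors went opposite ways.

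Rbp4-leaning spots had more of the decidual and retinoid-linked genes. Of 15 decidual genes 7 were lower in Sfrp4-leaning spots and none higher. Mt4 had 393, 747 and 933 CPM in Sfrp4-leaning spots, against 2569, 2830 and 3741 CPM in Rbp4-leaning spots (-2.19 ± 0.13). Prl8a2 was at -1.91 ± 0.13, Gatm at -1.35 ± 0.12, Dio3 at -1.57 ± 0.14 and Erv3, an envelope gene of an endogenous retrovirus, at -2.31 ± 0.19. Stra6, the Rbp4 receptor, had 6.55, 2.70 and 12.9 CPM against 63.6, 53.6 and 65.3 CPM (-2.92 ± 0.42), Cyp26b1 had 9.83, 24.3 and 30.1 CPM against 113, 86.3 and 97.1 CPM (-2.11 ± 0.29), and Nog had 9.83, 35.1 and 19.4 CPM against 101, 182 and 87.0 CPM (-2.47 ± 0.28). The groups of Stra6, Cyp26b1 and Nog, which were picked from called genes, did not overlap. How many of all tested genes had no overlap was not counted here either. In Sfrp4-leaning spots Stra6 rests on 2, 1 and 6 UMIs and Cyp26b1 on 3, 9 and 14 UMIs, and DESeq2 gave no adjusted p for Stra6.

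A few further genes fell in Sfrp4-leaning spots. Coch had 59.0, 43.2 and 64.5 CPM in Sfrp4-leaning spots, against 361, 357 and 264 CPM in Rbp4-leaning spots (-2.52 ± 0.19). The calcium-binding protein gene S100g, at 598 CPM in Rbp4-leaning spots of replicate 3 and at most 30.1 CPM in those of the other libraries, was at -2.95 ± 0.27 and lost its call without the block (adjusted p = 0.093), and Sprr2h (-2.80 ± 0.36) missed the threshold without replicate 3 (adjusted p = 0.050). In the Wnt pathway, Wnt5a (1.64 ± 0.28) and Sfrp1 (1.34 ± 0.19) were higher in Sfrp4-leaning spots and the Wnt-cleaving enzyme Notum (-1.92 ± 0.38) lower, the last with adjusted p = 0.11 without replicate 3.

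Muscle and gland markers moved with this split, and their part in it was not tested. Smooth muscle genes outside the rule were higher in Sfrp4-leaning spots for 5 of 9, among them Myl9 (1.98 ± 0.15) and Tpm2 (2.04 ± 0.17), with a summed level of 3885 to 5498 CPM in Sfrp4-leaning spots and 1830 to 2770 CPM in Rbp4-leaning spots. The 5 muscle genes of the rule summed to 1543 to 2628 CPM against 170 to 465 CPM. Acta1 (3.11 ± 0.42) is an actin gene like Acta2 and Actg2 of the rule. Whether reads were shared among them was not tested, so its rise is uncertain. The gland proteases of the rule summed to 19.7 to 32.4 CPM against 146 to 191 CPM, and the gland gene Spink1 was at -2.39 ± 0.25. The gland and epithelium list outside the rule summed to 151, 281 and 239 CPM in Sfrp4-leaning spots, against 150, 1586 and 188 CPM in Rbp4-leaning spots, so that it was highest in the Rbp4-leaning spots of replicate 3, where S100g was high too. Median depth was 5605, 17153 and 18306 UMIs per spot in Sfrp4-leaning spots and 6332, 16154 and 27219.5 UMIs in Rbp4-leaning spots.

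**Figure D5:**
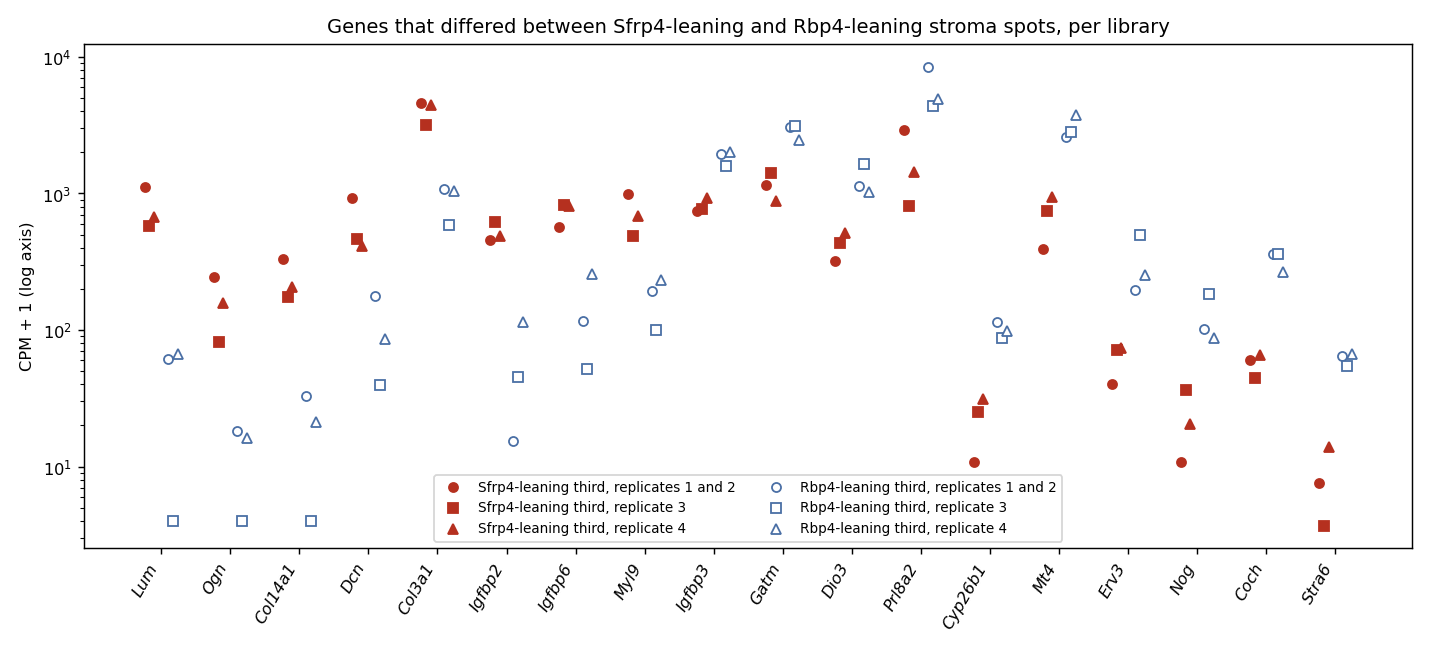
CPM plus 1 on a log axis of 18 genes called between the Sfrp4-leaning and Rbp4-leaning spots, with Sfrp4-leaning spots in red to the left of Rbp4-leaning spots in blue, 1 point per library. Lum, Ogn and Col14a1 have 2.98 CPM each, 1 UMI, in the Rbp4-leaning spots of replicate 3, and Stra6 is at 2.70 to 12.9 CPM in the Sfrp4-leaning spots.

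Coordinates of the genes followed most closely are those of GRCm38 with GENCODE release 21, and each is a protein-coding gene there. Sfrp4 (ENSMUSG00000021319) lies on chromosome 13 at 19623104 to 19632994, Rbp4 (ENSMUSG00000024990) on chromosome 19 at 38116629 to 38125281, and Cyp26b1 (ENSMUSG00000063415) on chromosome 6 at 84571414 to 84593908. Nog (ENSMUSG00000048616) lies on chromosome 11 at 89300638 to 89302332, Mt4 (ENSMUSG00000031757) on chromosome 8 at 94137197 to 94139031, and Lum (ENSMUSG00000036446) on chromosome 10 at 97565128 to 97572703.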

How the data were processed

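The deposited matrices hold whole-number UMI counts for every gene in every spot, without normalization. The file headers name Space Ranger 1.2.2, and Cell Ranger and mm10 come from the submitters' processing notes. No source used here gives aligner settings, annotation version or spot filter. Of 3978 deposited spots, 39 had under 1000 UMIs and were dropped. Levels are CPM of the UMIs pooled over the spots of a class in a library. Sums of at least 10 spots per library and class were fitted with edgeR 4.0.16 (R 4.3.3, TMM scaling, filterByExpr, quasi-likelihood test, library as a block, Benjamini-Hochberg adjustment), and the scripts were tested on simulated data. Gland spots had at least 1000 CPM of Prss28 and Prss29, and muscle spots at least 20000 CPM of the muscle genes, both under the embryo limit. P-values measure only the spread of the class differences over 3 libraries, of which 1 mixes 2 replicates. The spots, gene lists and tests were chosen with earlier results of these data known. Named genes were the 16 called genes with the largest rise and the 10 with the largest fall against all other spots (6 and 6 in the other comparisons), with a symbol name, the same sign in all 3 libraries and a mean log2 CPM in the fit no lower than 3, and of each list up to 4 members with the smallest p, the 2 with the most counts, and all Wnt and retinoid genes; further list members in the text were picked with their values known. Of 30 gene lists (454 symbols), 2 genes with 2 gene IDs each were left out. Alternatives were relative log expression scaling, DESeq2 1.42.0, no filter, no minimum fold, no block, at least 5000 UMIs per spot, minimum 4000 CPM of Sfrp4 and Rbp4, a muscle limit of 10000 CPM, and each library left out. No doublet caller was run, since spots hold several cells.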

Additional observations from a re-analysis of the deposited data

How the results depend on the processing

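Of 86 recomputed counts of called genes, 69 stayed within 1.5 times. Without the minimum fold change, 1833 genes were higher and 1992 lower against all other spots, 1518 and 1620 against muscle spots, 634 and 948 against gland spots, and 299 and 310 between Sfrp4-leaning and Rbp4-leaning spots. DESeq2's Wald test gave 43 and 314 against gland spots and 81 and 46 between Sfrp4-leaning and Rbp4-leaning spots. Without a filter on low counts, 163 genes were higher against gland spots and 179 lower in Sfrp4-leaning than in Rbp4-leaning spots. Leaving out 1 library gave 63 to 134 higher and 296 to 505 lower against gland spots, the lowest both without replicate 4, and 56 to 113 lower in Sfrp4-leaning spots, the lowest without replicate 3 (98 without replicate 4). The share of spots was 3.05% with a minimum of 4000 CPM. That minimum was not run for the Sfrp4-leaning and Rbp4-leaning spots, which would have had under 10 spots in 2 libraries.

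Named genes gave 326 pairs of gene and comparison, with 3526 recomputed log2 fold changes. Of these, 3363 kept their call or stayed uncalled, 108 lost the call and 51 gained it. Another 4 reversed in direction with a call in the main or the recomputed fit. Genes that changed sign but were uncalled in both fits count among the 3363. Cyp26a1 (0.14) ranged from -8.59 without replicate 3, where its only UMIs in the spots were, to 1.17 without replicate 4. Lcn2 (1.96) went to -0.0109 in DESeq2's Wald test, and ranged from -1.41 without replicate 3 to 2.58 without replicate 4. Wfdc2 (2.00) ranged from -0.606 without replicate 3 to 2.64 without replicate 4. The library was a block throughout because each gave both classes of spots; without that replicate block no count of calls moved by over 1.5 times. The cause of the other differences was not tested. With at least 5000 UMIs per spot, every count of calls stayed within 1.5 times.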
